A study of Mus musculus with 9 samples.

Results

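The genes described here were long noncoding RNA (lncRNA) genes of mouse CD8+ T cells: 1829 genes that the GENCODE M21 annotation types as lincRNA (646), antisense (1125) or bidirectional promoter lncRNA (58) and whose gene-body signal was 50 or more in at least 3 of 9 libraries. They were 1829 of the 7741 lncRNA genes with a deposited row, and 37022 genes of any type had a row. 10 genes were left out by name: Gm26917, Gm42418, AY036118, AC132320.1, A830012C17Rik and the genes whose symbols start with Snhg or Gas5, which host small nucleolar RNAs. Members were thus chosen by annotation type, by name and by the measured level of their gene-body signal, so their being detectable is no finding, and counts over them describe genes that passed a minimum. The lncRNA genes just under it were Gm34933, Gm2694 and Gm1647, whose third-highest library had 49.9 each, and those just over it were A330049N07Rik (50.1), B230323A14Rik (50.3) and Gm26973 (50.3).

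The study labelled RNA as it was made. Mouse CD8+ T cells, the cytotoxic T cells, were given 0.2 mM 5-ethynyl uridine for 30 minutes, and the labelled RNA was coupled to biotin, pulled down on streptavidin beads and sequenced in paired reads of 100 bases. The 3 groups of 3 libraries were Acute (acute stimulation), Chronic (chronic stimulation) and ChronicMEKi (chronic stimulation with MEK inhibition), and the study asked which changes of nascent transcription go with T cell exhaustion, the low-function state that T cells enter under persistent antigen. All groups shared the labelling. The labels give neither the stimulus and its duration nor the inhibitor and its dose, the mouse strain or the age of the animals, and they do not say whether the 3 libraries of a group came from separate animals or cultures, so each p-value measures the spread between these libraries, which may be technical.

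LncRNAs are transcripts that are not known to be translated. Some act where they are made, on the chromatin of neighbouring genes, some build nuclear bodies, some carry microRNAs in their introns or exons, and for many the act of transcription is the only known property. Nascent RNA shows them before splicing and decay, so that transcripts that are quickly degraded can be seen. MEK is the kinase that activates ERK downstream of the T cell receptor and of RAS.

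The microRNA host genes are the members whose products are best known, and these are therefore shown first, from RefSeq (GRCm38.p6), in lower case with the seed (bases 2 to 8, counted from the 5′ end) in capitals. 5 members were microRNA host genes. Both miR-155 arms lay in exon 2 of the 2 exons of the Mir155hg row, at chr16:84714143-84714202 (mm10, plus strand). The arms of the miR-17-92 cluster lay in exon 2 of the 2 exons of the Mir17hg row, at chr14:115043684-115044496 (plus strand), and the miR-142 arms lay in the intron of Mir142hg, at chr11:87756867-87756925. miR-17-5p and miR-20a-5p shared the seed AAAGUGC, and miR-19a-3p and miR-19b-3p shared GUGCAAA. The other printed arms had a seed of their own in this set.
mmu-miR-155-5p: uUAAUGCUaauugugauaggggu
mmu-miR-155-3p: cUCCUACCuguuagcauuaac
mmu-miR-17-5p: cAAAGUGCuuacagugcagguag
mmu-miR-20a-5p: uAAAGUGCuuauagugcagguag
mmu-miR-18a-5p: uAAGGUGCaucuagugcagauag
mmu-miR-19a-3p: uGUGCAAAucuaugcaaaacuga
mmu-miR-19b-3p: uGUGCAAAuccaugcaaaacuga
mmu-miR-92a-3p: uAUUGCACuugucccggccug
mmu-miR-142a-5p: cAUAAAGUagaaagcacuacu
mmu-miR-142a-3p: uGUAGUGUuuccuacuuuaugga

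Among lncRNA genes that stand alone, the promoters of 4 with large changes are shown to place these little-known genes. Each is 300 bases of the RefSeq table of GRCm38.p6, read 5′ to 3′ on the gene's strand, with the 50 bases from the start site onward in capitals. They belong to Ifngas1 (chr10:118556476-118556775, minus strand), Gm32633 (chr7:64001654-64001953, plus strand), Gm35507 (chr3:106879312-106879611, minus strand) and Gm20139 (chr10:19141499-19141798, plus strand).
Ifngas1: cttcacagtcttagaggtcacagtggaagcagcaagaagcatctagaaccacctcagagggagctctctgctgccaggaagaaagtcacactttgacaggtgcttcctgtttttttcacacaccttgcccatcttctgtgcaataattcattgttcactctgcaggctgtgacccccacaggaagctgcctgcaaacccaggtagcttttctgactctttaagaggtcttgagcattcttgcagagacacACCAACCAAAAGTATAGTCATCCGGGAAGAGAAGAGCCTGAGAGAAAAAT
Gm32633: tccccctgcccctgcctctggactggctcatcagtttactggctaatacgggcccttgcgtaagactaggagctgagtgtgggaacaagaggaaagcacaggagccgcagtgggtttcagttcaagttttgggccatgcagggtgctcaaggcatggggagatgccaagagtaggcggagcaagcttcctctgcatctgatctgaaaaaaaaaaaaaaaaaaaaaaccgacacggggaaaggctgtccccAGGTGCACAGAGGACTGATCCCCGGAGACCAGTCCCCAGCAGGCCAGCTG
Gm35507: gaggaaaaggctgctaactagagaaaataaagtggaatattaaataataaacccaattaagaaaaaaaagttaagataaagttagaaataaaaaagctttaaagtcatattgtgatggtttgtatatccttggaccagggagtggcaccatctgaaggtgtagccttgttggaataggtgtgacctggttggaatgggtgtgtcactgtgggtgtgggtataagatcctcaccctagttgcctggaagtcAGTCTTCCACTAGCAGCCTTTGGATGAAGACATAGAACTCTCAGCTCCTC
Gm20139: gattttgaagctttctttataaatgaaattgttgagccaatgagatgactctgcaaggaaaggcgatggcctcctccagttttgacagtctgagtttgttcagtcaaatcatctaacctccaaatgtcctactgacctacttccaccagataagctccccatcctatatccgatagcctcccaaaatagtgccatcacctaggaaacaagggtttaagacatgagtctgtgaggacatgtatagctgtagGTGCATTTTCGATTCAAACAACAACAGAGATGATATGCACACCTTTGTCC

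These 4 windows held none of 5 motifs searched on both strands: AP-1 (TGANTCA), CRE (TGACGTCA), ETS (CCGGAAG), EGR (GCGTGGGCG) and E-box (CACGTG). RefSeq held a promoter that started within 50 bases of the deposited row for 89 isolated members. Of these 89, 5.62% held the AP-1 letters, 2.25% CRE, 18.0% ETS, 0% EGR and 11.2% the E-box. Of all 32544 promoters in the table, 7.79% held AP-1, 1.80% CRE, 8.91% ETS, 0.618% EGR and 7.17% the E-box. No motif here overlapped another by design, a match is a match of letters only, and a window without one says nothing about the factor.

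The deposited values are a scaled signal, not reads, so the depth in reads is unknown, and they were rescaled here so that the typical gene had the same level in each library (scaled signal). Gene-body totals of the 9 libraries ran from 48601757 to 52216192 units of deposited signal. The libraries differed in signal where little transcription is known: of 1032 isolated olfactory receptor genes, 58.0%, 16.7% and 43.5% had any signal in Acute 1 to 3, 20.9%, 12.8% and 18.9% in Chronic 1 to 3, and 18.6%, 41.7% and 22.3% in ChronicMEKi 1 to 3. Acute 1, Acute 3 and ChronicMEKi 2 therefore stood apart, and 29 isolated and 70 overlapping members reached 50 only in those libraries. Isolated lncRNA genes under the minimum had 0.651, 0.313 and 0.673 scaled signal per kb in Acute, 0.394, 0.332 and 0.429 in Chronic and 0.234, 0.684 and 0.372 in ChronicMEKi. All 8 CD8 T cell markers passed the minimum, with summed signals of 18986 to 21082 in Acute, 13649 to 14126 in Chronic and 15884 to 18050 in ChronicMEKi. In the same order the means were 4061, 968 and 2881 for Cd8a and 1872, 1229 and 2041 for Cd8b1. Of the list only Cd3g (1500 and 1592) and Cd5 (1681 and 1937) had a higher mean in Chronic than in Acute. The CD4 T cell pair, Cd4 and Zbtb7b, summed to 1040.2 to 1367, 1054 to 1383 and 1729 to 2016. The pair moved apart, with Cd4 means of 442, 234 and 116 and Zbtb7b means of 789, 1002 and 1769. Of 4 B cell markers only Cd79a passed (list sums 351 to 437, 90.2 to 166 and 85.4 to 227). Of 5 myeloid markers 2 passed (161 to 227, 112 to 171 and 90.5 to 218, with Lyz2 under 3 in each mean), and none of the NK, erythroid or stromal markers did. The part of these differences in the results was not tested. Output genes of MEK and ERK summed to 2606 to 3174 in Acute, 3821 to 4604 in Chronic and 545 to 701 in ChronicMEKi. In the same order the means were 2505, 2395 and 204 for Dusp6 and 102, 695 and 48.9 for Etv5. They were 35.3, 115 and 18.3 for Etv4 and 241, 975 and 346 for Spry2.

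**Figure D1:**
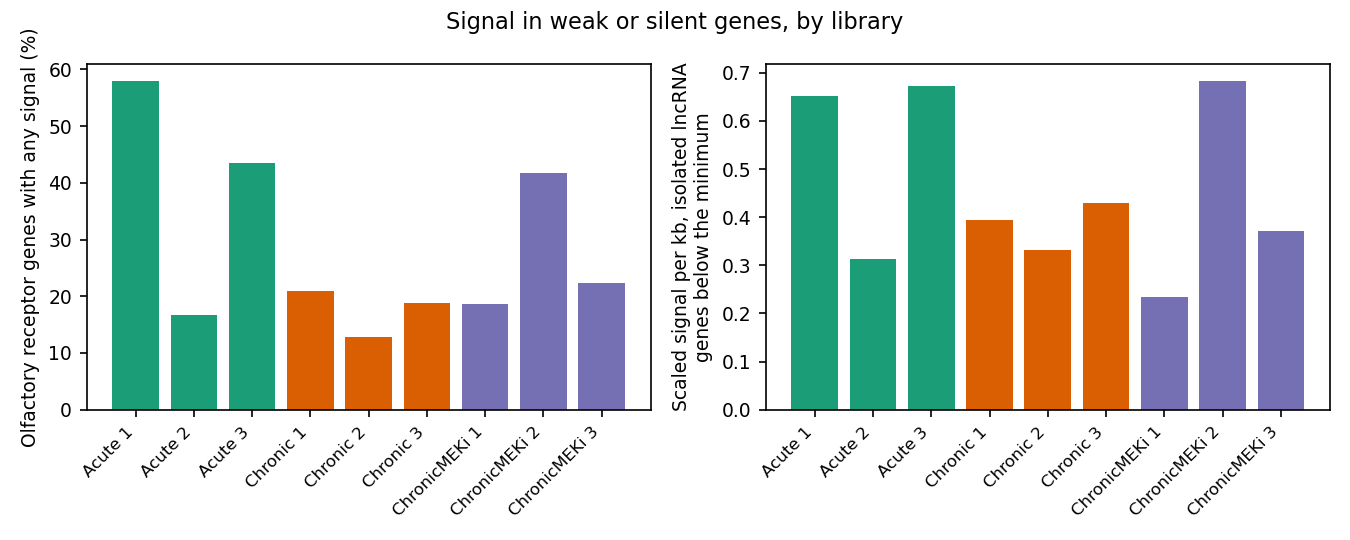
Signal in places of little known transcription, by library: the percentage of isolated olfactory receptor genes with any gene-body signal and the scaled signal per kb of isolated lncRNA genes under the minimum of 50. Acute 1, Acute 3 and ChronicMEKi 2 have 58.0%, 43.5% and 41.7% of the olfactory receptor genes with signal, against 12.8% to 22.3% in the other libraries.

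The signal did not resolve strand. 25 pairs of opposite-strand rows that shared at least 95% of their span differed by a median of 0.03 on the log2 scale, at most 0.12, whereas 67 same-strand pairs differed by a median of 0.02 and at most 0.23. The signal of a lncRNA gene that overlaps another gene cannot therefore be told apart from that of the other gene. Members were read in 2 classes for this reason. 272 were isolated, sharing no base with any other annotated gene (234 lincRNA, 15 antisense and 23 bidirectional genes), and 1557 overlapped another gene. Of the 1557, 658 were wholly covered, 280 were covered over 50% to under 100% of the span and 619 over less, 1467 had a partner on the opposite strand, and in 31 the partners were small RNA genes alone.

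Isolated lncRNA genes were transcribed at low levels. Their median scaled signal was 81.3, against 789 for 5086 isolated protein-coding genes, and per kb of span it was 9.92 against 47.1. 170 of the 272 had a mean under 100. The median row had 3 exons and spanned 13.1 kb, and 22 were single-exon rows. 65 started within 2 kb of a gene that is read the other way, 30 lay within 10 kb downstream of a gene, and 120 had no gene within 5 kb. 92 isolated and 924 overlapping members reached 50 in all 9 libraries. Through the 3 libraries of a single group alone, 6 isolated and 23 overlapping members passed in Acute, 3 and 5 in Chronic and 0 and 1 in ChronicMEKi; those had to differ between groups, and their differences are given as description. In such data fewer cells of a type and less RNA per cell cannot be told apart.

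Chronic stimulation was compared with acute stimulation with limma on log2(scaled signal + 5), with Benjamini-Hochberg adjustment over all 15942 genes that passed, and genes were called at an adjusted p under 0.05. The background is that 33.9% of all genes were called, 18.0% higher and 15.9% lower in Chronic. Of the 272 isolated lncRNA genes, 31 were higher in Chronic and 33 were lower (23.5%). Their median log2 difference was −0.29, and of the 1557 overlapping ones 188 were higher and 205 lower (25.2%; median −0.12). The median over all genes was −0.02, and 36.8% of isolated protein-coding genes were called (1084 higher, 790 lower; median 0.06). By type, 74 lincRNA genes were higher and 73 lower of 646, 141 antisense genes higher and 160 lower of 1125, and 4 bidirectional genes higher and 5 lower of 58. Of the 120 isolated genes with no gene within 5 kb, 16 were higher and 19 lower. Both shares lay under the background. With the 3 libraries of high background left out, Acute 2 was the only Acute library and 187 isolated members were tested, with a median of −0.02. Fewer of them and fewer of all genes were then called. Scaling to library totals moved the median of all genes to −0.50, and the deposited scale moved it to −0.48, and the split of isolated calls was then 18 higher and 75 lower, or 18 and 76 (overlapping 84 and 543, or 88 and 532). Directions are therefore relative to the typical gene. All differences given for single genes are log2 differences of the first group named minus the second.

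**Figure D2:**
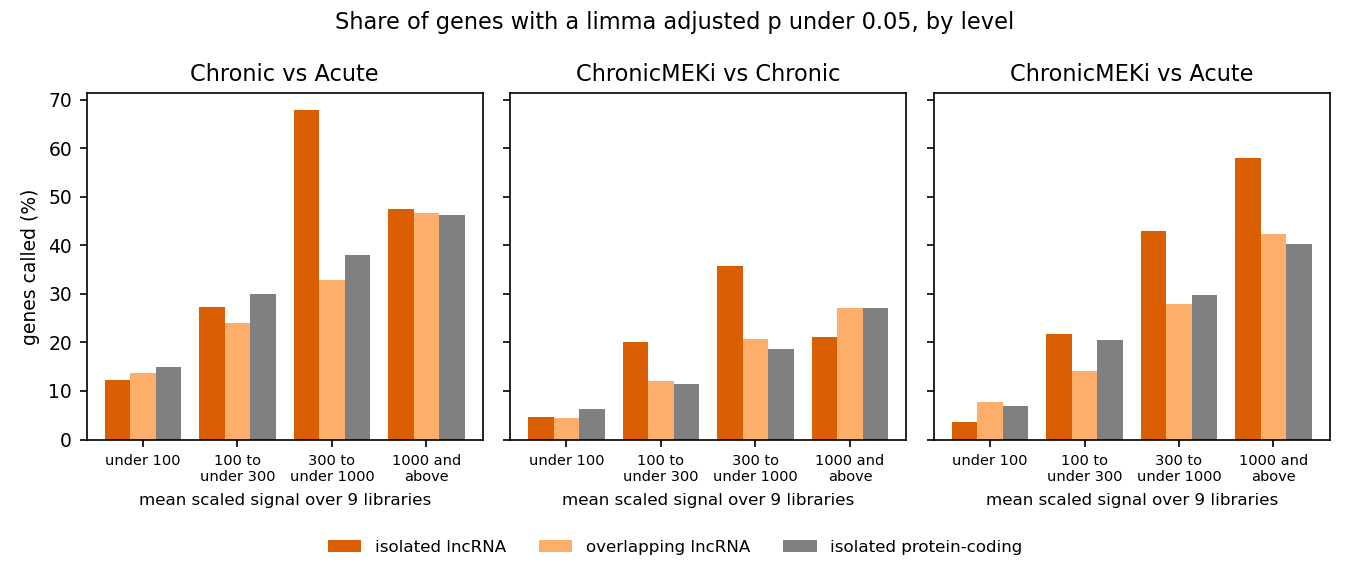
Share of genes called by limma (adjusted p under 0.05) by mean scaled signal, for isolated lncRNA genes, overlapping lncRNA genes and isolated protein-coding genes in each comparison. For Chronic against Acute the share of isolated lncRNA genes runs from 12.4% of 170 genes with a mean under 100 to 67.9% of 28 at 300 to under 1000 and 47.4% of 19 at 1000 or above, and that of isolated protein-coding genes from 15.0% to 46.3%.

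Level went with the share of calls in every class. Of genes with a mean under 100, 12.4% of isolated lncRNA genes, 13.8% of overlapping ones and 15.0% of isolated protein-coding genes were called in Chronic against Acute. Of those at 1000 or above the shares were 47.4% of 19, 46.6% of 206 and 46.3% of 2211 genes. From 300 to under 1000 the classes differed most, with 67.9% of 28 isolated lncRNA genes against 38.0% of 1309 isolated protein-coding genes; the difference was not tested.

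Gm2682, a lincRNA gene at chr15:60120540-60187408, minus strand, was the isolated gene with the smallest adjusted p. Its signal was 13333, 13422 and 12249.9 in Acute 1 to 3, 1318, 1078 and 959 in Chronic 1 to 3 and 3255, 2723 and 2647 in ChronicMEKi 1 to 3. The 3 groups did not overlap: Acute was highest, Chronic lowest and ChronicMEKi between. Chronic minus Acute was −3.54 (SE 0.12, adjusted p = 2.2e-13) on the log2 scale, ChronicMEKi minus Chronic 1.36 (SE 0.12, adjusted p = 1.2e-07) and ChronicMEKi minus Acute −2.18 (SE 0.12, adjusted p = 2.6e-10). The nearest protein-coding gene, 4933412E24Rik, lies 103927 bases away and had a mean of 1 or less in every group, so the nearest coding gene had no comparable signal. Both the fall under chronic stimulation and the partial rise with the inhibitor kept their call under all 21 other settings.

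Ifngas1, also known as NeST, lies beside the gene of interferon gamma, the main effector cytokine of CD8+ T cells, and its RNA is known for promoting transcription of that gene. Its row is at chr10:118502035-118556525, minus strand, and it lies 56143 bases from Ifng. The signal of Ifngas1 was 1327, 1866 and 1269.9 in Acute, 133, 325 and 151 in Chronic and 161, 386 and 430.2 in ChronicMEKi. Every Acute library was above every library of the other groups. In Chronic Ifngas1 fell by 2.94 (SE 0.39, adjusted p = 8.1e-05), while Ifng rose from means of 137 to 1827 (log2 3.69, adjusted p = 9.5e-11). With the inhibitor Ifng fell by 1.22 (adjusted p = 0.00020), and Ifngas1 differed by 0.66 (adjusted p = 0.30). ChronicMEKi remained below Acute in Ifngas1 (−2.27, adjusted p = 0.00091) and above it in Ifng (2.46, adjusted p = 3.5e-08). The difference of Ifngas1 between ChronicMEKi and Chronic passed without ChronicMEKi 1 (adjusted p = 0.035), and its call against Acute was lost with no minimum signal (adjusted p = 0.052).

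Gm32633, A630023P12Rik, Gm19705 and Gm26520 completed the 6 largest falls of isolated genes among those with a mean of 100 or more in the higher group and no overlap of libraries. Gm32633 lies 62970 bases from Klf13, the gene of a Krüppel-like transcription factor, and had 469, 285 and 268 in Acute, 11.3, 35.1 and 25.9 in Chronic and 119, 133 and 112 in ChronicMEKi. In Chronic it fell by 3.62 (SE 0.40, adjusted p = 1.2e-06), and it rose with the inhibitor by 2.21 (SE 0.40, adjusted p = 0.00056). Klf13 itself differed by −0.79 (adjusted p = 2.4e-05) and 0.72 (adjusted p = 0.00015). Gm32633 and Klf13 moved the same way in both comparisons. A630023P12Rik, near Galnt9, had 297, 283 and 263 in Acute and 27.1, 38.7 and 6.74 in Chronic, a change of −3.49, and stayed low in ChronicMEKi at 21.6, 61.1 and 33.3. Outside Acute it reached 50 in ChronicMEKi 2 alone, a library of high background, so its difference is given as description. Gm19705, 40716 bases from Zfp281, had 327, 368 and 307 in Acute, 59.7, 19.4 and 32.6 in Chronic and 78.5, 57.7 and 171 in ChronicMEKi (Chronic minus Acute −3.12, adjusted p = 2.0e-05). Gm26520, 7979 bases from Kif3c, had 289, 332 and 206 in Acute, 33.8, 36.3 and 21.4 in Chronic and 64.9, 104 and 96.9 in ChronicMEKi (Chronic minus Acute −2.98, adjusted p = 7.3e-06). Acute lay above Chronic without overlap in each of these genes. Gm15729 reached 50 in the Acute libraries alone (72.4, 139 and 189.6, against 15.8, 24.2 and 11.2 in Chronic) and so had to be lower elsewhere; Cep19, 796 bases upstream of it, was also lower in Chronic (−1.01, adjusted p = 0.049).

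Of the 31 isolated genes that were higher in Chronic, 4 that are named here had Irf4, Tnfaip3 or Gata3 as their nearest coding gene. How often such neighbours occur among all isolated members was not counted. Gm29675, 17457 bases from Irf4, a transcription factor induced by T cell receptor signals, had 39.7, 26.9 and 38.0 in Acute, 106, 241 and 254 in Chronic and 49.7, 62.8 and 73.9 in ChronicMEKi. Chronic was above Acute in every library of Gm29675. It rose by 2.28 (SE 0.43, adjusted p = 0.00046), and with the inhibitor it fell by 1.53 (adjusted p = 0.019). Irf4 rose by 2.17 (adjusted p = 1.1e-12) and fell by 1.47 (adjusted p = 5.7e-10). Gm20139, 126094 bases from Tnfaip3, which encodes A20, an inhibitor of NF-kappa-B signals, had 255, 142 and 249 in Acute, 619, 364 and 366 in Chronic and 119, 127 and 100.0 in ChronicMEKi. The Chronic libraries of Gm20139 were the highest. It rose by 1.05 (adjusted p = 0.011) and fell by 1.88 (adjusted p = 0.00016), and Tnfaip3 changed by 1.98 (adjusted p = 8.2e-08) and −2.05 (adjusted p = 1.4e-07). Gm13218 and Gm13219 lie 259235 and 409402 bases from Gata3, a transcription factor of T cell identity. Gm13218 had 21.1, 14.4 and 42.1 in Acute and 185, 93.1 and 207 in Chronic (log2 difference 2.46, given as description because it reached 50 in the Chronic libraries alone), Gm13219 had 30.7, 34.1 and 51.0 and 147, 135 and 134 (1.75, adjusted p = 0.0017), and Gata3 rose by 1.82 (adjusted p = 1.1e-11). The rise of Gm20139 was lost without Acute 2 or Chronic 1 (adjusted p = 0.051 to 0.073) and with scaling to library totals, the deposited scale or no minimum signal (adjusted p = 0.057 to 0.15), and the fall of Gm29675 with the inhibitor was lost without Chronic 2, Chronic 3 or ChronicMEKi 1 (adjusted p = 0.059 to 0.10) and with no minimum signal or the sum over all rows of the gene (adjusted p = 0.052 to 0.078).

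Gm27162, Gm14154, Gm35507 and Gm47662 were also higher in Chronic. Gm27162 lies 147117 bases from Ets1, a transcription factor of lymphocytes, and had 188, 97.0 and 94.4 in Acute, 427, 677 and 604 in Chronic and 200.3, 186 and 260.4 in ChronicMEKi. It rose by 2.17 (SE 0.30, adjusted p = 1.4e-05) while Ets1 fell by 0.35 (adjusted p = 0.0016). Gm14154, 1936 bases from Angpt4, had 73.6, 237 and 127 in Acute, 408, 543 and 361 in Chronic and 158, 146 and 118 in ChronicMEKi and rose by 1.68 (adjusted p = 0.00099). Its Chronic libraries were the highest, and the difference of Angpt4 was 0.27 (adjusted p = 0.67). Gm35507 and Gm47662 reached 50 in the Chronic libraries alone and are given as description. Gm35507, 1020 bases from an olfactory receptor gene with almost no signal, had 286, 204 and 211 in Chronic, 23.1, 14.4 and 14.9 in Acute and 5.61, 39.9 and 7.29 in ChronicMEKi. Gm47662, 1500 bases from Serpinb9, which encodes an inhibitor of granzyme B, had 145, 178 and 344 in Chronic, 10.2, 7.87 and 19.02 in Acute and 3.20, 11.0 and 0 in ChronicMEKi, and Serpinb9 itself had means of 598, 4818 and 652. The call of Gm14154 was lost with no minimum signal or Acute 1, Acute 3 and ChronicMEKi 2 all left out (adjusted p = 0.064 to 0.14).

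2 isolated genes stood apart for other reasons. Gm47039 had the largest fitted rise, from 40.3, 17.7 and 288 in Acute to 691, 1558 and 1250.0 in Chronic (4.05, SE 1.09, adjusted p = 0.030). Its Acute libraries differed widely among themselves, and the call was lost without Acute 1, Acute 2, Chronic 1, Chronic 2, Chronic 3 or ChronicMEKi 1 (adjusted p = 0.051 to 0.094) and with no minimum signal (adjusted p = 0.062). Gm19951, at chr12:99643093-99647221, plus strand, had the highest level of the isolated genes named, 20451 scaled signal per kb. It had 48985, 46184 and 36701 in Acute, 91530.0, 119362 and 111828 in Chronic and 93783, 109531 and 102064 in ChronicMEKi, so Acute lay below both other groups. Its rise in Chronic was 1.29 (SE 0.12, adjusted p = 9.7e-08), against 0.81 with scaling to library totals and 0.82 on the deposited scale, and it did not move with the inhibitor beyond the spread (−0.07, adjusted p = 0.75).

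**Figure D3:**
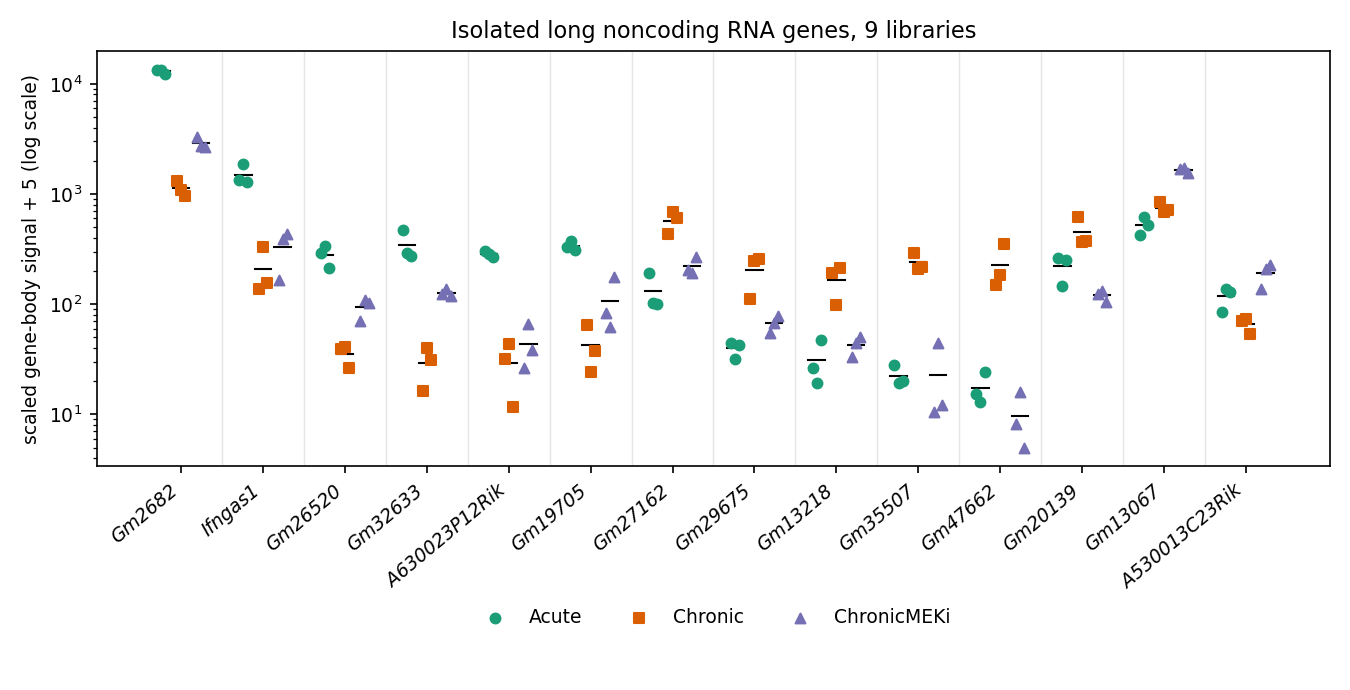
Scaled gene-body signal + 5 (log axis) of 14 isolated lncRNA genes in each library, with a black line at each group's mean. Gm2682 runs from 13002 on average in Acute to 1118 in Chronic and 2875 in ChronicMEKi, and Ifngas1 from 1487 to 203 and 326.

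With MEK inhibition under chronic stimulation, 17.6% of all genes were called, 9.93% higher and 7.65% lower. 18 isolated lncRNA genes were higher and 15 lower (12.1%; median 0.07), and 109 overlapping ones were higher and 97 lower (13.2%; median 0.09), against 19.3% of isolated protein-coding genes and a median of 0.04 over all genes. This comparison and the one before share the Chronic libraries, so that opposite signs in them are not independent, and both values are given side by side. Gm35507 and Gm47662, described above, were lower with the inhibitor (−3.71 and −4.61). Gm13218 was lower as well (−1.90), likewise given as description. Gm20139 fell by 1.88 (adjusted p = 0.00016), after a difference of 1.05 between Chronic and Acute. Gm14154 (−1.59, adjusted p = 0.0030), Gm27162 (−1.37, adjusted p = 0.0027) and AC132455.2 (−1.35, adjusted p = 0.037) also fell. Of these AC132455.2, 27491 bases from Zfp36l2, which encodes an RNA-destabilising protein, was lowest in ChronicMEKi at 35.2, 37.3 and 17.7, against 103, 68.9 and 75.3 in Chronic and 101, 140.3 and 146 in Acute. The call of AC132455.2 was lost without Chronic 1, Chronic 2, Chronic 3 or ChronicMEKi 3 (adjusted p = 0.060 to 0.14) and with scaling to library totals, the deposited scale, no minimum signal, a fit of the 2 groups compared or Acute 1, Acute 3 and ChronicMEKi 2 all left out (adjusted p = 0.056 to 0.081). Those of Gm14154 and Gm27162 were lost with no minimum signal (adjusted p = 0.15 and 0.081).

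Genes that rose with the inhibitor included Gm16225, near Runx3, and A530013C23Rik, near Cebpb. How often isolated members lie near genes of this kind was not counted. Gm16225 starts 205 bases from Runx3 and is read away from it; Runx3 is the factor that sets the CD8 fate. Gm16225 had 13.5, 15.7 and 56.2 in Chronic, 85.7, 124 and 192 in ChronicMEKi and 143, 45.2 and 27.2 in Acute. Its ChronicMEKi libraries were above the Chronic ones (2.20, adjusted p = 0.016), and Runx3 rose too (0.86, adjusted p = 0.0067). A530013C23Rik lies 759 bases downstream of Cebpb and had 65.4, 68.9 and 48.3 in Chronic and 132, 205 and 223 in ChronicMEKi, a rise of 1.52 (adjusted p = 0.0060) beside 1.30 (adjusted p = 0.0011) for Cebpb. Both genes were higher in ChronicMEKi. Gm13067, 30389 bases from Gpr157, had 422, 611 and 517 in Acute, 839, 675 and 717 in Chronic and 1679.8, 1705 and 1558 in ChronicMEKi. ChronicMEKi was highest without overlap, by 1.15 (SE 0.16, adjusted p = 3.6e-05) over Chronic and 1.68 (SE 0.16, adjusted p = 2.7e-07) over Acute. AC102496.1, 614 bases from Pik3c3, had 59.7, 74.99 and 96.7 in Chronic and 194, 227 and 256 in ChronicMEKi (1.51, adjusted p = 0.0062), with no called change of Pik3c3 (0.07, adjusted p = 0.75). Gm45356 rose by 1.94 (adjusted p = 0.0084) from 12.4, 25.4 and 37.1 to 111, 72.1 and 135. The call of Gm16225 was lost without Chronic 1, Chronic 2 or ChronicMEKi 3 (adjusted p = 0.065 to 0.10) and with no minimum signal, no trend or robust moderation or the sum over all rows of the gene (adjusted p = 0.058 to 0.21), and that of Gm45356 without ChronicMEKi 3 (adjusted p = 0.061).

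Of the genes with the largest falls in Chronic, Gm32633, Gm2682, Gm26520 and Gm19705 were higher with the inhibitor. Gm26520 rose by 1.40 (adjusted p = 0.015) and Gm19705 by 1.32 (adjusted p = 0.045), and neither reached the Acute level on average, with means of 88.7 against 276 and 102 against 334. A630023P12Rik (0.68, adjusted p = 0.45) and Gm15729 (0.86, adjusted p = 0.33) had no called difference. The call of Gm26520 was lost without ChronicMEKi 2 or ChronicMEKi 3 (adjusted p = 0.057 to 0.062) and with no minimum signal, a fit of the 2 groups compared, Acute 1, Acute 3 and ChronicMEKi 2 all left out or the sum over all rows of the gene (adjusted p = 0.055 to 0.11), and that of Gm19705 without Acute 1, Acute 2, Acute 3, Chronic 2, Chronic 3, ChronicMEKi 1 or ChronicMEKi 3 (adjusted p = 0.064 to 0.25) and with a pseudocount of 20, no minimum signal, no trend or robust moderation, a fit of the 2 groups compared, Acute 1, Acute 3 and ChronicMEKi 2 all left out or the sum over all rows of the gene (adjusted p = 0.051 to 0.30).

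In ChronicMEKi against Acute, 25.8% of all genes were called, 14.4% higher and 11.5% lower. 15 isolated lncRNA genes were higher and 26 lower (15.1%; median −0.26), and 141 overlapping ones were higher and 147 lower (18.5%; median −0.05), against 29.4% of isolated protein-coding genes. Of the 120 isolated genes with no gene within 5 kb, 5 were higher and 16 lower. Leaving out the 3 libraries of high background left Acute 2 as the only Acute library, with 187 isolated genes tested. Fewer of them and fewer of all genes were then called. Scaling to library totals gave 8 isolated genes higher and 50 lower at a median of −0.37 over all genes. The largest rises were those of AC102496.1 (1.89, adjusted p = 0.00068), 4933404O12Rik (1.71, adjusted p = 0.0018), Gm13067, 4632428C04Rik (1.40, adjusted p = 0.011), Gm13219 (1.30, adjusted p = 0.018) and Gm19951 (1.22, adjusted p = 3.7e-07). 4933404O12Rik lies 3742 bases downstream of Ift22 and had 34.6, 53.8 and 41.4 in Acute, 87.9, 131 and 125 in Chronic and 143, 148 and 162 in ChronicMEKi. 4632428C04Rik, 42954 bases from Hes1, had 48.0, 66.9 and 74.1 in Acute and 147, 192 and 181 in ChronicMEKi. In both genes every ChronicMEKi library was above every Acute library. With the 3 libraries left out, AC102496.1, 4933404O12Rik, 4632428C04Rik and Gm13219 were no longer called (adjusted p = 0.10, 0.12, 0.24 and 0.19). Gm13219 was also lost without Acute 1 or ChronicMEKi 2 (adjusted p = 0.076 to 0.077) and with scaling to library totals or the deposited scale (adjusted p = 0.072 to 0.084). 4632428C04Rik was also lost without Acute 1 (adjusted p = 0.061) and with no minimum signal (adjusted p = 0.066).

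The largest falls of ChronicMEKi against Acute by the same rule were those of A630023P12Rik (−2.81), Ifngas1 (−2.27), Gm2682 (−2.18), AC132455.2 (−1.97, adjusted p = 0.0022) and Gm19705 (−1.80, adjusted p = 0.0049). The difference of A630023P12Rik is given as description, because outside Acute it reached 50 in ChronicMEKi 2 alone. Gm15729, which reached 50 in Acute alone, had 28.0, 42.4 and 32.3 in ChronicMEKi and is given as description (−1.74). Gm26520 differed by −1.58 (adjusted p = 0.0048) and Gm32633 by −1.41 (adjusted p = 0.014). Both comparisons with Acute use the same Acute libraries, 2 of which had high background. The call of Gm32633 was lost without Acute 1 or ChronicMEKi 3 (adjusted p = 0.052 to 0.083) and with no minimum signal or Acute 1, Acute 3 and ChronicMEKi 2 all left out (adjusted p = 0.096 to 0.28). Gm19705 was lost with no minimum signal or Acute 1, Acute 3 and ChronicMEKi 2 all left out (adjusted p = 0.12 to 0.15) and Gm26520 with Acute 1, Acute 3 and ChronicMEKi 2 all left out (adjusted p = 0.058).

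The microRNA host gene Mir155hg, also known as BIC, makes miR-155, which antigen receptor signals induce and which sustains T cell responses. Its row overlaps only the microRNA gene itself, over 0.54% of the span. Mir155hg had 1699, 1499 and 1665 in Acute, 15461, 16889 and 15519 in Chronic and 2498, 2148 and 2587 in ChronicMEKi. Every Chronic library was above all others. It rose in Chronic by 3.30 (SE 0.10, adjusted p = 1.1e-13), and with the inhibitor it fell by 2.73 (SE 0.10, adjusted p = 5.2e-12); neither call was lost under any other setting. The remaining difference between ChronicMEKi and Acute, 0.57 (adjusted p = 0.00025), was lost with scaling to library totals or the deposited scale (adjusted p = 0.18 to 0.28). The arms printed above as mmu-miR-155-5p and mmu-miR-155-3p come from this transcript, but mature microRNA was not measured.

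Mir17hg, whose miR-17-92 cluster promotes lymphocyte growth and survival, had 4483, 4094 and 4989 in Acute, 3447, 3686 and 4203 in Chronic and 3531, 3175 and 3499 in ChronicMEKi. Its Chronic minus Acute difference was −0.26 (adjusted p = 0.062), and ChronicMEKi minus Acute was −0.41 (adjusted p = 0.0065), a call lost with no minimum signal or Acute 1, Acute 3 and ChronicMEKi 2 all left out (adjusted p = 0.13 to 0.38). Mir142hg, host of a microRNA of blood cells, had 7893, 8211 and 6152 in Acute, 7267, 6287 and 7163 in Chronic and 8591, 8584 and 8751 in ChronicMEKi. It was higher in ChronicMEKi than in Chronic by 0.33 (adjusted p = 0.037), a call that was lost without Acute 1, Acute 2, Chronic 2, ChronicMEKi 1, ChronicMEKi 2 or ChronicMEKi 3 (adjusted p = 0.066 to 0.18) and with no minimum signal, no trend or robust moderation, Acute 1, Acute 3 and ChronicMEKi 2 all left out or the sum over all rows of the gene (adjusted p = 0.093 to 0.39). Mir670hg and Mir133a-1hg, the latter host of a muscle microRNA, had means between 53.4 and 194 and no call in any comparison, and Mir133a-1hg lies wholly within Mib1. Of the 5 host genes 1 was higher and none lower in Chronic against Acute, 1 was higher and 1 lower in ChronicMEKi against Chronic, and 1 was higher and 1 lower in ChronicMEKi against Acute, where 33.9%, 17.6% and 25.8% of all genes were called.

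Of the nuclear body RNAs, Neat1, the scaffold of paraspeckles, had 2900.0, 3309.8 and 2550.0 in Acute, 6322, 5168 and 5433 in Chronic and 5426, 5001 and 4708 in ChronicMEKi. Acute was the lowest group in every library. Neat1 rose in Chronic by 0.95 (SE 0.11, adjusted p = 1.9e-06) and was higher in ChronicMEKi than in Acute by 0.79 (adjusted p = 2.4e-05); with scaling to library totals the rise in Chronic was 0.47 and on the deposited scale 0.49. Malat1, an RNA of nuclear speckles, had 37393, 31574 and 26473 in Acute, 39783, 37633 and 28412 in Chronic and 35941, 34393 and 26831 in ChronicMEKi. The groups of Malat1 overlapped, and the differences were 0.15 (adjusted p = 0.49) and −0.12 (adjusted p = 0.68). Of this pair, which lie side by side on chromosome 19, Neat1 alone was called, and the difference between their changes was not tested. Both overlap other annotated genes, 1 of them small RNA genes only, so part of the signal may not be their own.

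For lncRNAs with roles in growth or stress 17 symbols were listed, some of which name the same gene, and 10 genes were members. Of these 10, 2 were isolated and 2 overlapped only small RNA genes. The signal of the rest cannot be told apart from that of the genes they overlap. Of the 10, 4 were higher and 2 lower in Chronic against Acute, where 18.0% of all genes were higher and 15.9% lower. Trp53cor1, known as lincRNA-p21 and induced by p53, lies 11797 bases from Cdkn1a, the gene of the cell cycle inhibitor p21. Trp53cor1 had 481, 668 and 575 in Acute, 1927, 1529.9 and 1199 in Chronic and 2771, 2540.0 and 1939 in ChronicMEKi. The groups did not overlap and ChronicMEKi was highest. Its differences were 1.41 (SE 0.18, adjusted p = 8.1e-06), 0.65 (adjusted p = 0.017) and, against Acute, 2.06 (adjusted p = 1.5e-07), and in the same order those of Cdkn1a were 1.49, 0.54 and 2.03. AC167363.1, which overlaps Trp53cor1 on the other strand, differed by 1.62, 1.00 and 2.63. The rise of Trp53cor1 in Chronic was 0.92 with scaling to library totals and 0.94 with the deposited scale. The smaller difference of Trp53cor1 between ChronicMEKi and Chronic was lost without Chronic 2, Chronic 3, ChronicMEKi 1 or ChronicMEKi 2 (adjusted p = 0.057 to 0.13) and with no minimum signal, no trend or robust moderation, Acute 1, Acute 3 and ChronicMEKi 2 all left out or the sum over all rows of the gene (adjusted p = 0.057 to 0.32), and that of AC167363.1 without Chronic 3, ChronicMEKi 1 or ChronicMEKi 2 (adjusted p = 0.080 to 0.14) and with no minimum signal or Acute 1, Acute 3 and ChronicMEKi 2 all left out (adjusted p = 0.067 to 0.19).

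Dubr, a regulator of muscle cell differentiation whose nearest coding gene had almost no signal, had 196, 146 and 139 in Acute, 637, 786 and 882 in Chronic and 432, 445 and 493 in ChronicMEKi. It rose in Chronic by 2.23 (SE 0.21, adjusted p = 1.7e-07) and differed with the inhibitor by −0.74 (adjusted p = 0.021), remaining above Acute (1.50, adjusted p = 3.3e-05). Lockd, named for its place downstream of the cell cycle inhibitor gene Cdkn1b, had 1064, 1638 and 1353 in Acute, 2724, 2764 and 1493 in Chronic and 3681, 3196 and 3320.4 in ChronicMEKi. ChronicMEKi was above Acute without overlap (1.35, adjusted p = 0.00093), and the rise in Chronic was 0.75 (adjusted p = 0.023). Lncpint, a p53-induced transcript, had 25353, 27251 and 24628 in Acute, 12964, 13375 and 10879 in Chronic and 16623, 16525 and 16006 in ChronicMEKi. In Chronic it fell by 1.06 (SE 0.09, adjusted p = 3.2e-08), and it rose with the inhibitor by 0.41 (adjusted p = 0.0030). Of these calls, that of Dubr between ChronicMEKi and Chronic was lost without Chronic 2, Chronic 3, ChronicMEKi 1 or ChronicMEKi 2 (adjusted p = 0.058 to 0.085) and with scaling to library totals, the deposited scale or no minimum signal (adjusted p = 0.059 to 0.077), that of Lncpint with no minimum signal or the sum over all rows of the gene (adjusted p = 0.16 to 0.34). Lockd was lost against Acute with no minimum signal or Acute 1, Acute 3 and ChronicMEKi 2 all left out (adjusted p = 0.052 to 0.054), and its rise in Chronic without Acute 1, Acute 3, Chronic 1 or Chronic 2 (adjusted p = 0.055 to 0.083) and with scaling to library totals, the deposited scale, scaling to totals without ribosomal RNA-like rows, no minimum signal, no trend or robust moderation or Acute 1, Acute 3 and ChronicMEKi 2 all left out (adjusted p = 0.065 to 0.41).

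Pvt1, the transcript beside Myc, had 52611, 56222 and 52656 in Acute, 50879, 51732 and 38688 in Chronic and 56190.1, 57664 and 51818 in ChronicMEKi, with no called difference (−0.20, adjusted p = 0.14, and 0.24, adjusted p = 0.12). With the inhibitor Myc fell by 0.62 (adjusted p = 0.0048) and did not differ in call between Chronic and Acute (0.04, adjusted p = 0.87). Tug1 differed by −0.38 (adjusted p = 0.045) in Chronic, a call lost under 11 of the 21 other settings, among them without Acute 1, Acute 3, Chronic 1, Chronic 2, ChronicMEKi 1 or ChronicMEKi 3 (adjusted p = 0.058 to 0.20). 1700020I14Rik, known as Cyrano for its site that directs the decay of miR-7, differed by 0.46 (adjusted p = 0.0049), which turned to −0.028 with scaling to library totals and −0.011 on the deposited scale. 2900097C17Rik, known as Norad, which binds PUMILIO proteins, had means of 2213, 2664 and 2126 and no call. Epb41l4aos (0.00) and Nron (−0.57), an RNA that holds NFAT in the cytoplasm, had none either, and Nron lies wholly within Mvb12b.

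Of 12 lncRNAs listed for roles in immune cells 2 were members, Ifngas1 and Mirt1, and both were lower in Chronic and in ChronicMEKi than in Acute. Of all genes 15.9% and 11.5% were lower in these comparisons, and 2 genes do not describe the list. Ifngas1 is isolated, but Mirt1 overlaps another gene, and its signal cannot be told apart from that of the other gene. Mirt1 had 575, 646 and 488 in Acute, 213, 379.8 and 242 in Chronic and 215, 345 and 239 in ChronicMEKi, without overlap between Acute and the others. Its differences from Acute were −1.06 (adjusted p = 0.0033) and −1.11 (adjusted p = 0.0033), and both calls were lost with no minimum signal (adjusted p = 0.072 and 0.085). Of 8 imprinted lncRNAs 3 were members, and all overlap the genes they are known to silence or to regulate. Kcnq1ot1, which silences the Kcnq1 domain in cis, had 5986, 5632 and 5364 in Acute, 6756, 7132 and 5262 in Chronic and 5490.3, 4685 and 4921 in ChronicMEKi and differed with the inhibitor by −0.33 (adjusted p = 0.043), a call lost without Chronic 1, Chronic 2, ChronicMEKi 2 or ChronicMEKi 3 (adjusted p = 0.13 to 0.20) and with scaling to library totals, the deposited scale, no minimum signal, no trend or robust moderation, Acute 1, Acute 3 and ChronicMEKi 2 all left out or the sum over all rows of the gene (adjusted p = 0.11 to 0.45). Airn, which silences Igf2r, had means of 5137, 6465 and 5259 and no call. Nespas, an antisense transcript of the Gnas locus, differed by 0.42 (adjusted p = 0.043) in Chronic, which turned to −0.069 with scaling to library totals and −0.052 on the deposited scale; the call was also lost without Acute 3, Chronic 2 or ChronicMEKi 3 (adjusted p = 0.054 to 0.23) and with scaling to totals without ribosomal RNA-like rows, no minimum signal, no trend or robust moderation, a fit of the 2 groups compared, Acute 1, Acute 3 and ChronicMEKi 2 all left out or the sum over all rows of the gene (adjusted p = 0.059 to 0.35).

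**Figure D4:**
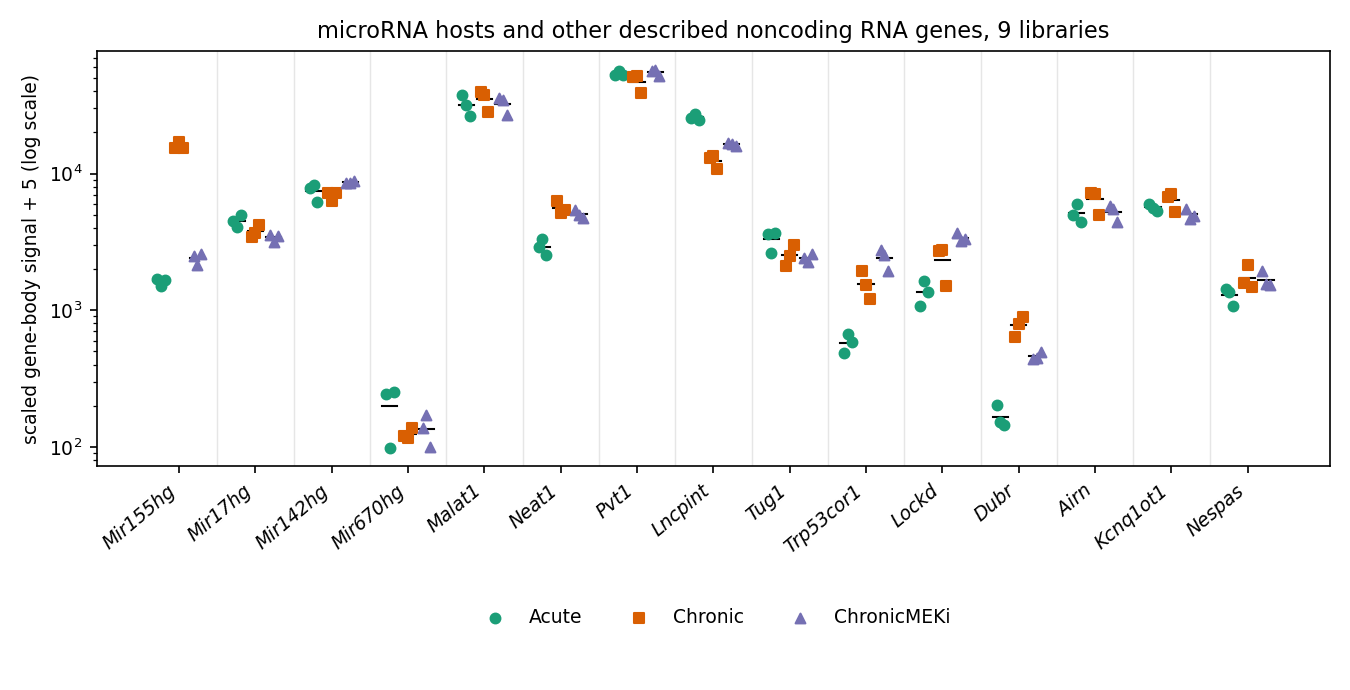
Scaled gene-body signal + 5 (log axis) of 15 lncRNA genes with known names in each library, with a black line at each group's mean. Mir155hg averages 1621 in Acute, 15956 in Chronic and 2411 in ChronicMEKi, while the groups of Malat1 overlap.

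4 further isolated members with high levels were read as well. AU020206, 14429 bases from Akap13, had 23583, 27589 and 22238 in Acute, 14579.7, 15903 and 12505 in Chronic and 19408, 18982 and 17127 in ChronicMEKi. In Chronic it fell by 0.77 (SE 0.10, adjusted p = 9.8e-06), and Akap13 fell by 1.45 (adjusted p = 2.4e-10). The change of AU020206 was −1.26 with scaling to library totals and −1.25 with the deposited scale. Gm39323, 2325 bases from Thy1, a surface protein of T cells, fell by 0.63 (adjusted p = 0.0013), and Thy1 by 0.74 (adjusted p = 3.0e-05). A630091E08Rik rose with the inhibitor by 0.54 (adjusted p = 0.0047), and Gm39317, whose libraries ran from 6169.6 to 27576 within and across groups, had no call (0.47, adjusted p = 0.60). The call of A630091E08Rik was lost with no minimum signal or no trend or robust moderation (adjusted p = 0.069 to 0.25), and that of Gm39323 with no minimum signal (adjusted p = 0.15).

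Among overlapping members, Gm12223, Gm26756, Gm35330 and Gm28592 had the largest rises in Chronic by the same rule. Gm12223 overlaps Csf2, the gene of the cytokine GM-CSF, over 30.0% of its span. Gm12223 had 211, 155 and 319 in Acute, 5740.4, 6827 and 7830.4 in Chronic and 448, 585 and 578 in ChronicMEKi. Chronic was highest without overlap. Its differences were 4.91 (SE 0.21, adjusted p = 3.0e-11), −3.65 (adjusted p = 3.1e-09) and 1.26 (adjusted p = 0.00027), and those of Csf2 were 4.78, −3.55 and 1.23. The values of Gm12223 and Csf2 cannot be told apart. Gm28592 lies wholly within Phlda1, a gene induced by T cell receptor signals, and both rose (3.46, adjusted p = 1.3e-05, and 3.23, adjusted p = 2.8e-08). A930024E05Rik lies wholly within Kdm2b and changed by 2.87 and −3.71, where Kdm2b changed by 1.28 and −1.05. Gm26756, antisense to Bend4 over 26.4% of its span, had 17.3, 14.4 and 33.3 in Acute, 434, 599.9 and 799 in Chronic and 102, 95.9 and 63.5 in ChronicMEKi (4.55, adjusted p = 3.7e-08, and −2.73, adjusted p = 4.8e-05), and Bend4 changed by 1.47 and −0.11. Gm35330 overlaps Gm40660, which had under 50 in most libraries, over 11.4% of its span. Gm35330 had 147, 49.8 and 174 in Acute, 2042, 1584 and 1643 in Chronic and 149.8, 128 and 117 in ChronicMEKi, so that Chronic alone was high (3.94, adjusted p = 1.2e-07, and −3.69, adjusted p = 6.9e-07).

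The largest falls in Chronic among overlapping members were those of Gm26740 (−4.14, adjusted p = 7.8e-10), Gm16341 (−3.61, adjusted p = 6.1e-09) and, among genes that reached 50 in Acute alone, A430088P11Rik and A930002I21Rik. Gm26740 overlaps Raet1e, the gene of a ligand of the receptor NKG2D, and had 1560.5, 1563 and 1493 in Acute, 107, 71.4 and 73.1 in Chronic and 413, 394 and 203 in ChronicMEKi, and Raet1e changed by −1.88 (adjusted p = 1.0e-08). Acute was highest in both. Gm16341, which shares 10.7% of its span with other genes including Armc9, had 1323, 1453 and 1434 in Acute, 145, 142 and 65.2 in Chronic and 368, 258 and 342 in ChronicMEKi, while the change of Armc9 was −0.41 (adjusted p = 0.086). Most of the span of Gm16341 is its own. Gm26771, antisense to Sfrp2, which encodes a secreted Wnt inhibitor, shares 2.88% of its span and had 5911, 5465 and 4859 in Acute, 671, 651 and 669 in Chronic and 3341, 2899 and 2560.1 in ChronicMEKi. It fell in Chronic and rose with the inhibitor (−3.01, adjusted p = 1.5e-12, and 2.13, adjusted p = 5.3e-10), and Sfrp2 changed by −2.79 and 1.94. A430088P11Rik, within Fam83f, had 163, 133 and 172 in Acute and 4.51, 2.42 and 12.4 in Chronic. A930002I21Rik had 125, 136 and 175 in Acute and is listed at 0 in all 3 Chronic libraries. Gm11342, within Cmah, fell by 2.83 (adjusted p = 3.4e-07) beside −2.69 (adjusted p = 1.2e-09) for Cmah.

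With the inhibitor, 4931406G06Rik (−4.04, adjusted p = 3.0e-07), Gm16587 within Selp (−3.75, adjusted p = 0.00016; Selp −3.94, adjusted p = 5.6e-08), A930024E05Rik and Gm35330 fell furthest. 4931406G06Rik had 88.4, 89.2 and 87.6 in Acute, 379.9, 728 and 407 in Chronic and 28.8, 16.1 and 31.2 in ChronicMEKi, so Chronic was highest, and its partner 4932438H23Rik changed by −3.40 (adjusted p = 5.0e-06). Prr33, which overlaps Lsp1, a gene of a leukocyte actin-binding protein, had 427, 654 and 497 in Acute, 32.7, 127 and 70.8 in Chronic and 626, 421 and 546 in ChronicMEKi and rose with the inhibitor by 2.87 (adjusted p = 1.7e-05), beside 2.93 (adjusted p = 1.1e-09) for Lsp1. Acute and ChronicMEKi overlapped in Prr33 and Chronic lay below. Gm28610, within 1700025G04Rik, rose by 2.12 (adjusted p = 0.0085), beside 2.56 (adjusted p = 2.3e-11) for its partner, and Gm6277, which reached 50 in the ChronicMEKi libraries alone, had 108, 93.4 and 149 there against 18.0, 29.0 and 29.2 in Chronic (Cables1 2.29, adjusted p = 2.6e-08). Gm34921 lies 197 bases from Dusp6, the gene of an ERK phosphatase that ERK itself induces. It shares 92.4% of its span with Gm48089, which differed with the inhibitor by −1.49 (adjusted p = 0.041). Gm34921 had 99.9, 113 and 141 in Acute, 55.2, 46.0 and 98.9 in Chronic and 28.8, 0.85 and 5.21 in ChronicMEKi. With the inhibitor Gm34921 fell by 2.43 (adjusted p = 0.0099) and Dusp6 fell by 3.52 (adjusted p = 5.2e-12). Gm16316, within Pkig, was higher in Chronic (2.16, adjusted p = 0.0019) and in ChronicMEKi (2.46, adjusted p = 0.00089) than in Acute, as was Pkig (1.92 and 1.96). The call of Gm34921 was lost without Chronic 3 (adjusted p = 0.059) and with no minimum signal or Acute 1, Acute 3 and ChronicMEKi 2 all left out (adjusted p = 0.060 to 0.14), and that of Gm28610 with no minimum signal (adjusted p = 0.13).

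2 overlapping members with high levels were named as well. D130009I18Rik, a lincRNA gene of which other genes cover 0.033% of the span, had 42455, 34836 and 33988 in Acute, 52088, 81517 and 91992 in Chronic and 67284, 77205 and 94623 in ChronicMEKi. Acute was lower than both other groups (0.99, adjusted p = 0.0046, and 1.10, adjusted p = 0.0034), and the first call was lost without Acute 2 or Chronic 3 (adjusted p = 0.0501 to 0.061). The second was lost without Acute 2 (adjusted p = 0.052). The rise in Chronic was 0.50 with scaling to library totals and 0.51 with the deposited scale. Gm15564, antisense to Kpna1, had means of 17567, 28736 and 28639 and no call (0.65, adjusted p = 0.20). In the 31 members whose partners were small RNA genes alone, among them Mir155hg, 7 were higher and 1 lower in Chronic against Acute, 1 higher and 5 lower in ChronicMEKi against Chronic, and 4 higher and 2 lower in ChronicMEKi against Acute. These are 25.8%, 19.4% and 19.4% of the 31, against 33.9%, 17.6% and 25.8% of all genes called.

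95 members carry the symbol of another gene followed by os, for opposite strand. Of these, 2 were isolated, and the signal of the others cannot be told apart from that of the genes they overlap. 11 of them were higher and 17 lower in Chronic against Acute, 7 higher and 5 lower with the inhibitor, and 7 higher and 8 lower in ChronicMEKi against Acute. Of all genes 18.0% were higher and 15.9% lower in the first comparison, 9.93% and 7.65% in the second and 14.4% and 11.5% in the third. The following are examples chosen after their values were seen. Zeb2os, opposite the gene of a transcription factor of terminally differentiated CD8+ T cells, had 10.2, 11.8 and 14.3 in Acute, 99.2, 68.9 and 118 in Chronic and 9.61, 4.24 and 4.17 in ChronicMEKi (log2 differences of 2.53 and −3.19). It reached 50 in the Chronic libraries alone, so these differences are given as description. Bach2os, opposite the gene of a repressor that restrains effector differentiation, had 1317, 1634 and 1297 in Acute, 623, 519 and 549 in Chronic and 539, 552 and 545 in ChronicMEKi. In Chronic it fell by 1.32 (adjusted p = 2.1e-06), with no called difference with the inhibitor (−0.04, adjusted p = 0.90). Acute alone was high in Bach2os. Lrp8os2 and Lrp8os1 rose in Chronic (1.11, adjusted p = 8.2e-06, and 1.53, adjusted p = 0.0010) and fell with the inhibitor (−1.09, adjusted p = 2.2e-05, and −1.23, adjusted p = 0.011), and Tmcc3os and Zbtb11os1 fell (−2.14, adjusted p = 0.00034, and −1.30, adjusted p = 0.0075) and rose (1.39, adjusted p = 0.018, and 1.24, adjusted p = 0.019). Ccdc34os was higher in Chronic (1.21, adjusted p = 0.00063) and Arhgap27os3 lower (−1.02, adjusted p = 0.00011).

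**Figure D5:**
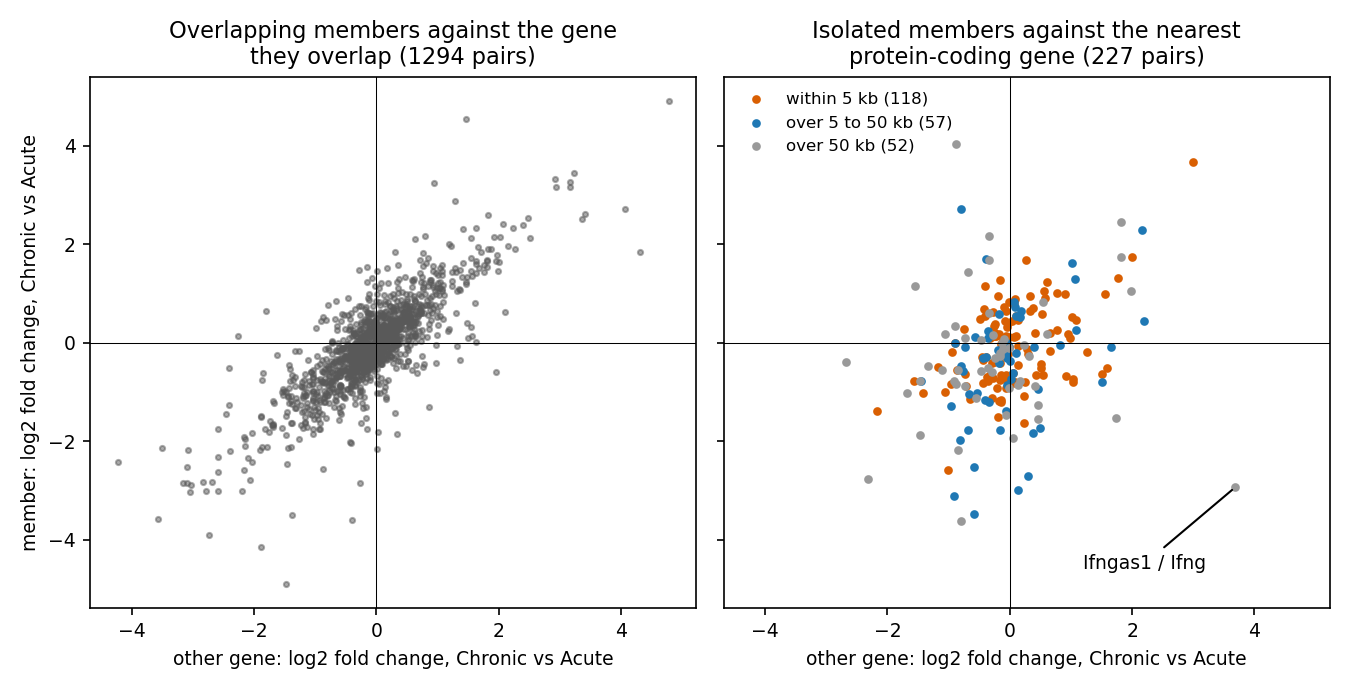
Log2 difference, Chronic minus Acute, of each lncRNA gene (vertical axis) against that of the gene it overlaps (1294 pairs) or, for isolated members, of the nearest protein-coding gene (227 pairs, coloured by distance). Overlapping pairs follow the diagonal (r = 0.82), whereas isolated pairs scatter more with distance, and Ifngas1 lies low where Ifng lies high.

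Overlapping members and their partners had like differences, and part of their signal is shared. Over 1294 pairs Pearson's r of the log2 differences was 0.82 in Chronic against Acute, 0.76 in ChronicMEKi against Chronic and 0.79 in ChronicMEKi against Acute, across genes that share libraries and part of their signal. Of 352 overlapping members of these pairs called in Chronic against Acute, 284 had a partner called in the same direction, 3 a partner called in the opposite one and 65 a partner not called. The 3 were A930015D03Rik (H2-T24), Gm11110 (Tnfsf9) and AC113003.1 (Kif5b). Gm11110 differed by −0.60 where Tnfsf9, the ligand of the costimulatory receptor 4-1BB, differed by 1.96.

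For isolated members and the nearest coding gene r was 0.49 within 5 kb (118 pairs), 0.33 at 5 to 50 kb (57 pairs) and 0.07 beyond 50 kb (52 pairs) in Chronic against Acute, and 0.31, 0.29 and 0.17 for isolated coding genes and their neighbours (2287, 1450 and 291 pairs). In ChronicMEKi against Chronic r of the isolated members was 0.48, 0.25 and 0.28 over the same distances, and in ChronicMEKi against Acute 0.52, 0.35 and −0.19. Both classes share libraries and local background within a pair. Of the members called, 13 of 22 within 5 kb, 7 of 19 at 5 to 50 kb and 5 of 13 beyond it had a neighbour called in the same direction in Chronic against Acute, beside 215 of 758, 167 of 602 and 29 of 119 isolated coding genes. A neighbour called in the opposite direction was found for 7 of the 54 members called. Over the same distances it was 1 of 22, 3 of 19 and 3 of 13, beside 87 of 758, 87 of 602 and 16 of 119 isolated coding genes. Among the 7 were Ifngas1 and Gm27162 above, Gm17399 (1.16, Cmc1 −0.41, 54 bases away), Gm40652 (−1.53, Hsf2 1.73), 2610035D17Rik (−1.73, Slc39a11 0.50) and 2810429I04Rik (1.70, Gdi2 −0.38). The values are log2 differences, and apart from Ifngas1 and Gm27162 these genes are named for that direction, chosen after their values were seen. In all 7 members the groups of libraries did not overlap, as in 62 of the 64 isolated lncRNA genes called. Over all genes this held for 5197 of the 5403 called.

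The deposited tables hold a second readout, the signal of the pause region near the start of each gene, where RNA polymerase II often halts before it elongates. 582 members reached 50 there in at least 3 libraries, 61 isolated and 521 overlapping. In Chronic against Acute 28 were higher and 56 lower, where 10.7% of all 7678 genes tested were called (5.37% higher, 5.35% lower); for isolated members it was 3 and 3. In ChronicMEKi against Chronic 15 were higher and 9 lower (3.0% of all genes called, 1.56% higher and 1.43% lower), and in ChronicMEKi against Acute 11 were higher and 35 lower (5.95% of all genes called, 3.44% higher and 2.51% lower). Of the members called in Chronic against Acute, 3 of 6 isolated and 57 of 78 overlapping ones were also called in the gene body in the same direction, and 2 overlapping ones in the opposite. The same share over all genes is not given here, so these counts are not particular to lncRNA genes. With no minimum signal limma called none of the 1829 members, and it called 1, 0 and 0 of all 37022 genes in the 3 comparisons. Of the members, 135, 49 and 92 had an unadjusted p under 0.05. With the 3 libraries of high background left out, Acute 2 was the only Acute library and 494 members were tested. In all 3 comparisons fewer members and fewer of all genes were then called. In Chronic against Acute the split of the members turned, with more higher than lower, and over all genes too more were then higher than lower. Scaling to library totals gave 11 higher and 197 lower in Chronic against Acute.

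Of the members described above, Mir155hg had a pause signal of 127, 78.3 and 37.6 in Acute, 839.8, 709.8 and 615 in Chronic and 124, 99.0 and 104 in ChronicMEKi (3.21, adjusted p = 2.0e-08, and −2.66, adjusted p = 1.7e-06). The Chronic libraries were the highest, as in the gene body. Gm2682 had a pause signal of 739, 559 and 796 in Acute, 66.9, 89.9 and 99.6 in Chronic and 107, 61.2 and 139 in ChronicMEKi (−2.96, adjusted p = 2.3e-08, and 0.19, adjusted p = 0.84), so Acute was highest and the rise with the inhibitor seen in the gene body had no call here. Gm12223 changed by 4.41 (adjusted p = 1.0e-11) and −3.59 (adjusted p = 1.1e-09). Gm13067 was higher in ChronicMEKi than in Acute by 1.36 (adjusted p = 0.0011). Other members were chosen for their pause signal after it was seen: Gm16034, at the Adam19 locus, fell by 3.68 (adjusted p = 1.3e-11) and differed by 1.99 with the inhibitor, and Gm48342, at the locus of Hmgcs1, an enzyme of cholesterol synthesis, rose by 2.83 (adjusted p = 1.5e-08). Among isolated members Gm2800 fell by 2.64 (adjusted p = 2.7e-06) and Gm26511 rose by 1.58 (adjusted p = 0.0035).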

How the data were processed

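Members, gene lists and naming rules were chosen with earlier results of these data known. Per the submitters' processing notes the reads were handled with FastQC 0.12.0, Trim Galore 0.6.10, STAR 2.7.0a, SAMtools 1.19.2, deepTools 0.1.9 and R 4.1.2 on mm10; the counter, the strand setting, the region limits and the annotation are not given in the sources used here. The deposited tables hold a signal per transcript row and library, for the gene body and for the pause region, which is not a count of whole reads, so no count model, counting interval or floor could be used.

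Of 118482 rows per table, 117346 matched GENCODE M21 with version, 383 without version and 753 did not match. Each gene was represented by its row of highest mean signal in the gene body. Genes with 50 or more in at least 3 libraries were kept. Scale factors were trimmed means of log ratios without weights (30% of log ratios and 5% of levels trimmed from each end), and log2(signal + 5) was fitted with limma 3.58.1 in R 4.3.3, with an intensity trend and robust moderation, 1 mean per group and all 9 libraries; the pause region was fitted in the same way. The fit was also run on simulated data, drawn independently for each gene and library. That run held no background shared within a library, so it gives no error rate for these data. Joins used pandas 2.3.3 under Python 3.11.15, and figures were drawn with matplotlib 3.10.9. The totals of each library are sums of signal and give no depth in reads.

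Named members were, for each comparison, the 6 isolated and 4 overlapping members with the largest called difference in each direction, a mean of 100 or more in the higher group and no overlap of libraries, with the member of smallest adjusted p and listed known lncRNAs (71 in all). Neighbours, and examples described as such, stand outside that rule. The values of a few genes are not reported here. Alternatives covered scaling, pseudocount (0.5 and 20), minimum, moderation, groups fitted, summed rows, a replicate block and each library left out; leaving out Acute 1, Acute 3 and ChronicMEKi 2 together was chosen after seeing the data, and the lone Acute library is then assumed to vary like the other groups. Coordinates are those of mm10 from the annotation, counted from 1.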

Additional observations from a re-analysis of the deposited data

How the results depend on the processing

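All directions are relative to the scaling, which cannot be set from these data: no spike-in values were used, and the depth in reads is unknown. Of 130 calls of named members, 2 changed sign with library totals and 2 on the deposited scale. Same-numbered libraries did not deviate together (correlations of −0.53 to 0.10 over 9 pairs). The labels do not say whether replicate numbers pair libraries, and the main fit modelled no pairing. Some libraries of different numbers did deviate together: Acute 2 with ChronicMEKi 1 (0.51), and ChronicMEKi 2 with Acute 1 (0.40) and Acute 3 (0.36). The fit treats libraries as independent. With a replicate block limma called 28 isolated members higher and 30 lower in Chronic against Acute, 19 and 14 in ChronicMEKi against Chronic and 16 and 23 in ChronicMEKi against Acute, and 50 pause regions in the last. In Chronic against Acute, the isolated count was 35 when isolation needed 5 kb and 37 with the 3 libraries left out, the overlapping count 627 with library totals, 620 on the deposited scale and 225 with the 3 left out, and the pause count 208, 0 and 28 with library totals, no minimum and the 3 left out. In ChronicMEKi against Chronic, the isolated count was 16 with 5 kb, the overlapping count 98 with no minimum and 131 with summed rows, and the pause count 0 with no minimum, 14 without trend or robust moderation and 13 with the 3 left out. In ChronicMEKi against Acute, the isolated count was 21 with 5 kb and 12 with the 3 left out, the overlapping count 147 with no minimum and 108 with the 3 left out, and the pause count 73, 0, 27 and 3 with library totals, no minimum, no trend or robust moderation and the 3 left out. Fewer genes or libraries enter with 5 kb and with the 3 left out. With the 3 left out, 14470 genes of any type were tested in the gene body instead of 15942, and fewer of all genes were called in each comparison. Otherwise the cause was not tested. Leaving out 1 library gave 50 to 65, 24 to 36 and 28 to 43 isolated calls in the 3 comparisons, 304 to 399, 146 to 223 and 203 to 299 overlapping calls, and 66 to 86, 13 to 28 and 25 to 51 pause calls. 1700020I14Rik turned to −0.028 and −0.011 and Nespas to −0.069 and −0.052 with library totals and on the deposited scale. Of 130 calls of named members, 45 were lost with no minimum, 10 with library totals, 16 without trend or robust moderation, 15 with summed rows, 3 with the block (Gm47039 and Gm28610 in Chronic against Acute, AC132455.2 in ChronicMEKi against Chronic), 6 to 15 without 1 library, and 29 of 120 with the 3 left out.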
